A study of Mus musculus with 14 samples.

Results

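The insulin-like growth factor (IGF) axis was followed in differentiating mouse embryonic stem cells (mESCs) through 10 of the 50686 genes of the deposited count table: the ligands Igf2 and Igf1, the noncoding RNA H19, the receptors Igf2r and Igf1r, and the binding-protein genes Igfbp2, Igfbp3, Igfbp4, Igfbp5 and Igfbp7. They were selected on levels already known in these libraries, so their values are a description and carry no test. Members were matched by symbol, except for H19, which the CPM table does not list and which was matched by its gene identifier. All 10 were above 3 reads in at least 10 of the 14 libraries.

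IGF ligands are secreted growth factors that act through the receptor tyrosine kinase IGF1R, while IGF2R (the cation-independent mannose 6-phosphate receptor) takes up IGF2 for lysosomal degradation and sends no growth signal of that kind. IGF-binding proteins hold the ligands outside the cell and so limit or prolong their action. Igf2 and H19 are neighbouring imprinted genes that share enhancers, Igf2 being expressed mainly from the paternal and H19 from the maternal copy, and Igf2r is expressed mainly from the maternal copy in most mouse tissues.

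The 14 libraries came from 2 lines with a stable small hairpin RNA, shDIS3L2 against the RNA exonuclease Dis3l2 and shLacZ against a gene that mouse cells do not have. The study describes its stable knockdown cells as an Osr1-GFP reporter mESC line, and the number of clones is not given in the sources used here. Undifferentiated cells in LIF and 2i medium were taken on d0, and embryoid bodies (EBs), made in hanging drops with serum once LIF and 2i were withdrawn, every 2 days up to d12. The comparison asked how the level of each gene along differentiation differed when Dis3l2 was depleted.

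With 1 library per line and day there was no replicate and no p-value. Levels are CPM, the reads of a gene scaled to an equal total of reads counted on genes, folds are of shDIS3L2 over shLacZ, and intervals are the 95% Clopper-Pearson intervals of the ratio of reads, which cover counting error only and compare 2 libraries, not the lines. Totals lay between 7178712 and 39888099 reads per library. Dis3l2 itself stood at 13.7% (11.1 to 16.7%) of the shLacZ level on d0, 28.1% on d2, 32.1% on d4, 55.2% on d6 and 75.4% on d12, but a lower level was not detectable on d8 (97.1%, 83.7 to 113%) or d10 (94.98%, 78.8 to 115%), so each day is given separately. The RNA was from whole cultures, in which fewer cells of a type and less RNA per cell cannot be told apart.

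The start sites and the microRNAs of the locus are shown first, because Igf2, Igf2r and Igfbp5 are the members that were at least 3-fold higher in the shDIS3L2 library on each of the 4 days from d6 to d12, and because H19 and Igf2 each carry a microRNA. Sequences are from RefSeq (GRCm38.p6) and read 5′ to 3′ on the strand of the gene. The 250 bases before each start are given, with the GC box GGGCGG, on either strand, in capitals. Igf2 has 4 RefSeq start sites, of which the most downstream is shown.
Igf2, chr7:142657497-142657746, minus strand: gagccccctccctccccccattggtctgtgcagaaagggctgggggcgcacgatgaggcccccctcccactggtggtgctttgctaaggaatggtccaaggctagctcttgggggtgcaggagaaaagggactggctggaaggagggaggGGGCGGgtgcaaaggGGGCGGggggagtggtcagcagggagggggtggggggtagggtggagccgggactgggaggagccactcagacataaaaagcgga
Igf2r, chr17:12769707-12769956, minus strand: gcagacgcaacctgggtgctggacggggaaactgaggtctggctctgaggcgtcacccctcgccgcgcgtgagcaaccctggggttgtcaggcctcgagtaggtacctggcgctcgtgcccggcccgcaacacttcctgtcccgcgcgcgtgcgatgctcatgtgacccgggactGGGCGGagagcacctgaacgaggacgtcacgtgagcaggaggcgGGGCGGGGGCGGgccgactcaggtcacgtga
Igfbp5, chr1:72874866-72875115, minus strand: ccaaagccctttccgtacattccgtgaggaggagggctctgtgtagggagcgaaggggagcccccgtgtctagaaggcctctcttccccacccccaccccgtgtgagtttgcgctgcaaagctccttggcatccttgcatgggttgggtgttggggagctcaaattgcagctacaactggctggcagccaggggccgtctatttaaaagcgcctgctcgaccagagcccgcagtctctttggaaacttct
The Igf2 stretch held 2 GC boxes, the Igf2r stretch 3, of which a pair lies end to end, and the Igfbp5 stretch none. Over windows of 300 bases (250 before and 50 after the start), 6 of the 13 windows of 9 members held GGGCGG on either strand, against 35.7% of the 32851 windows of the table. The 4 Igf2 windows, from the most upstream to the most downstream, held 0, 0, 1 and 2. Which start was used was not measured. TATAAA, searched on both strands, was in 1 of the 13 windows, that of Igfbp4, against 13.6% of all windows. The 3 members did not share either motif. H19 had no window in the table.

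The microRNAs are shown with the seed (bases 2 to 8) in capitals.
mmu-miR-675-5p, in H19, chr7:142577112-142577133: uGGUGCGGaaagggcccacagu
mmu-miR-675-3p, in H19, chr7:142577078-142577099: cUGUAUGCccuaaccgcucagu
mmu-miR-483-5p, in Igf2, chr7:142654968-142654989: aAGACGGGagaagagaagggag
mmu-miR-483-3p, in Igf2, chr7:142654932-142654952: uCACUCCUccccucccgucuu
All 4 lie on the minus strand and no pair shares a seed. The hairpin of miR-675 lies within an exon in 3 of the 4 annotated H19 transcripts that span it, and that of miR-483 within an intron in all 7 Igf2 transcripts that span it. Mature microRNAs are not measured by polyA libraries. The Mir675 row of the count table, which lies within H19, was at 0 in every library. The Mir483 row held at most 62 reads.

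Igf2 (ENSMUSG00000048583, chromosome 7, 142650766 to 142666816 of GRCm38, minus strand), the fetal growth factor, was nearly absent in ESCs and, per length, second only to H19 among the members in late EBs. In shLacZ it was at 0.451, 9.13, 62.7, 946, 1100, 779 and 802 CPM from d0 to d12 in steps of 2 days, the order used for all levels that follow. In shDIS3L2 it was at 0.604, 8.69, 22.8, 4835, 7496, 7636 and 6808 CPM. The lines did not differ beyond counting error on d0 and d2, shDIS3L2 was the lower on d4, and from d6 its 4 libraries all lay above every shLacZ library. The fold was 0.36 (0.32 to 0.41) on d4, 5.11 (5.01 to 5.21) on d6, 6.82 (6.71 to 6.92) on d8, 9.81 (9.56 to 10.1) on d10 and 8.49 (8.30 to 8.69) on d12.

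The step from d4 to d6 set the lines apart. Igf2 was 15.1-fold higher (13.7 to 16.6) on d6 than on d4 in shLacZ and 212-fold higher (194 to 233) in shDIS3L2. After d6 the levels moved little in comparison. In shLacZ, d10 and d12 did not differ beyond counting error (1.03-fold, 0.996 to 1.06), and in shDIS3L2 the highest days, d8 and d10, differed by 1.02-fold (1.01 to 1.03). The change between d4 and d6 had 1 library per line on each side.

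H19 (ENSMUSG00000000031, chromosome 7, 142575529 to 142578143, minus strand), a noncoding RNA and the most abundant member per length from d6 in both lines, was at 1.73, 199, 222, 3189, 3527, 2798 and 3285 CPM in shLacZ. In shDIS3L2 it was at 1.51, 127, 59, 7013, 6133, 6190 and 4743 CPM. It was detected in quantity earlier than Igf2, with a 115-fold (90.9 to 148) higher level on d2 than on d0 in shLacZ and 84.1-fold (61.6 to 118) in shDIS3L2, which became 77.7-fold and 49.4-fold with TMM and 80.6-fold and 45.0-fold with DESeq2 size factors. The shDIS3L2 libraries were the lower of the day on d2 (0.64, 0.61 to 0.67) and d4 (0.27, 0.25 to 0.29) and the higher on d6 (2.20, 2.17 to 2.23), d8 (1.74, 1.72 to 1.76), d10 (2.21, 2.18 to 2.24) and d12 (1.44, 1.42 to 1.46). The lower d4 level in shDIS3L2 was also below its own d2 level (0.465-fold, 0.434 to 0.497), while in shLacZ d4 was 1.11-fold (1.05 to 1.18) of d2. Igf2 and H19 together took 0.358 to 0.463% of all counted reads in shLacZ from d6 to d12 and 1.16 to 1.38% in shDIS3L2.

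**Figure D1:**
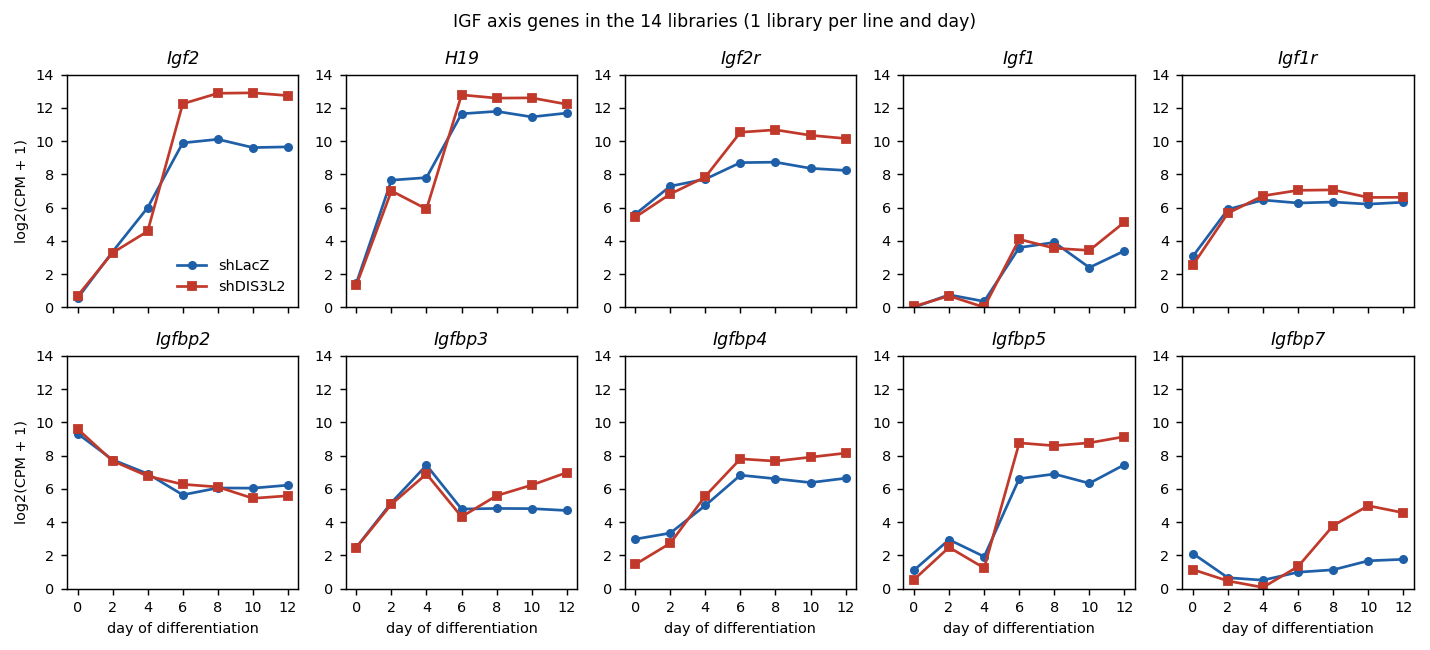
Level of the 10 IGF axis genes as log2(CPM + 1) against the day of differentiation, 1 panel per gene, with 1 point per library (blue circles shLacZ, red squares shDIS3L2). The panels of Igf2, Igf2r and Igfbp5 separate from d6, that of Igfbp7 from d8, and Igfbp2 is lower late than early in both lines.

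Within a library, the ratio of Igf2 to H19 reads per length does not depend on the library total. In shLacZ it was 0.117 (0.105 to 0.130) on d4, 0.123 (0.121 to 0.125) on d6, 0.129 (0.127 to 0.131) on d8, 0.115 (0.112 to 0.119) on d10 and 0.101 (0.0987 to 0.104) on d12, so that it stayed in a narrow range from d4. In shDIS3L2 it was 0.160 (0.144 to 0.178) on d4, 0.286 (0.283 to 0.289) on d6, 0.507 (0.503 to 0.510) on d8, 0.511 (0.508 to 0.515) on d10 and 0.595 (0.588 to 0.602) on d12. The highest shDIS3L2 ratio was thus at the last day, when the fold of Igf2 itself was no longer at its highest. At d2 the ratio was the lowest of the series in both lines, 0.0190 (0.0166 to 0.0216) in shLacZ and 0.0283 (0.0243 to 0.0329) in shDIS3L2.

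Igf2r (chromosome 17, 12682406 to 12769664, minus strand), the receptor that clears IGF2, was at 47.4, 155, 208, 415, 423, 327 and 300 CPM in shLacZ. In shDIS3L2 it was at 41.7, 112, 227, 1475, 1632, 1299 and 1136 CPM. Unlike Igf2, it was well expressed in ESCs. From d6 the shDIS3L2 libraries were 3.55-fold (3.44 to 3.66), 3.86-fold (3.76 to 3.96), 3.97-fold (3.81 to 4.13) and 3.79-fold (3.64 to 3.94) above shLacZ on d6, d8, d10 and d12, all 4 above every shLacZ library. At d4 the fold was 1.09 (1.03 to 1.16). Ligand and clearing receptor were both higher, but not by the same factor. The ratio of Igf2 to Igf2r reads per length was 3.76 (3.64 to 3.88) in shLacZ and 5.41 (5.31 to 5.50) in shDIS3L2 on d6, and 4.41 (4.23 to 4.60) against 9.88 (9.70 to 10.1) on d12. At d4 the order was the other way, 0.497 (0.446 to 0.552) against 0.165 (0.150 to 0.182).

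**Figure D2:**
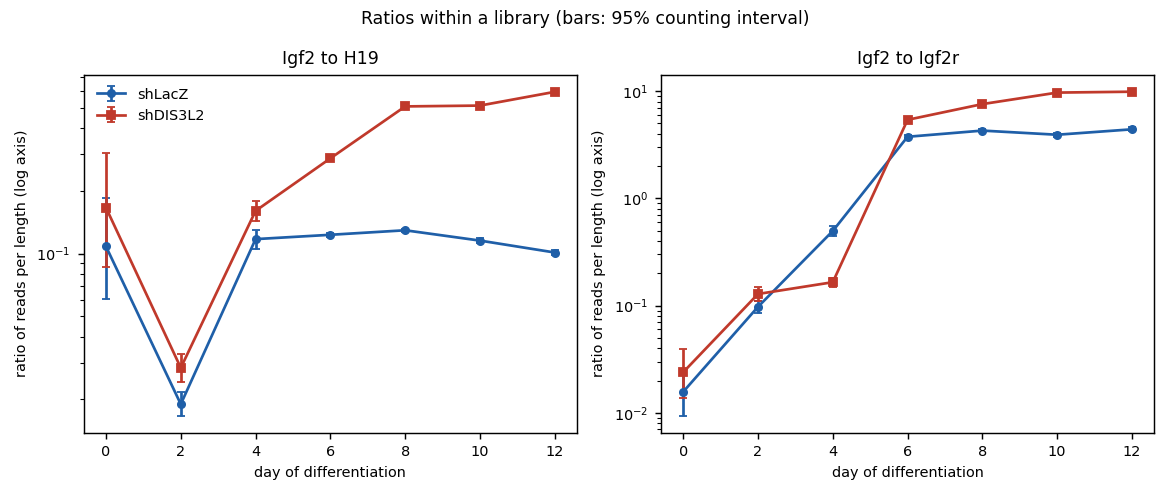
Ratio of reads per length of Igf2 to H19 (left) and of Igf2 to Igf2r (right) within each library against day, on log axes, with 95% counting intervals. The shLacZ ratio of Igf2 to H19 stays between 0.101 and 0.129 from d4 to d12, while that of shDIS3L2 reaches 0.595 on d12.

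Igf1r, the signalling receptor, differed far less than Igf2r. It was at 7.37, 58.4, 86.5, 76.3, 79.5, 72.7 and 78.7 CPM in shLacZ and at 4.8, 49.5, 103, 130, 133, 96.5 and 96.9 CPM in shDIS3L2. The folds from d6 were 1.70 (1.57 to 1.85), 1.67 (1.56 to 1.78), 1.33 (1.21 to 1.45) and 1.23 (1.12 to 1.35), with the shDIS3L2 library the higher on each of these days but under 3-fold on all of them. Per length, Igf1r stood at 0.148 (0.136 to 0.160) of Igf2r in shLacZ on d12 and at 0.0480 (0.0450 to 0.0511) in shDIS3L2.

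Igf1, the other ligand and the main mediator of growth hormone action after birth, was scarce. No read was counted in shLacZ on d0, which allows up to 0.0752 CPM, and no library exceeded 33.8 CPM. It was at 0, 0.682, 0.279, 11, 14, 4.24 and 9.52 CPM in shLacZ and at 0.0378, 0.607, 0, 16, 10.7, 9.71 and 33.8 CPM in shDIS3L2. At d0 and d4 both libraries were at or under 3 reads and no fold is given. The fold was 1.45 (1.16 to 1.82) on d6, 0.77 (0.64 to 0.93) on d8, 2.29 (1.595 to 3.38) on d10 and 3.55 (2.83 to 4.49) on d12, so that Igf1 was the only member besides Igfbp3 that was below shLacZ on 1 of the days d6 and d8 and at least 3-fold above it on d12.

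Among the binding-protein genes, Igfbp5 (chromosome 1, 72857932 to 72874884, minus strand), whose product is also held in the extracellular matrix, was the one at least 3-fold higher on all 4 days from d6. It was at 1.15, 6.67, 2.79, 96.6, 118, 79.5 and 174 CPM in shLacZ and at 0.453, 4.58, 1.35, 432, 385, 434 and 562 CPM in shDIS3L2. The shDIS3L2 libraries were the lower of the day on d0, d2 and d4 and the higher from d6, by 4.48-fold (4.21 to 4.77), 3.27-fold (3.12 to 3.44), 5.45-fold (5.04 to 5.91) and 3.23-fold (3.06 to 3.41). From d4 to d6 it was 34.7-fold (22.4 to 56.9) higher in shLacZ and 320-fold (221 to 482) in shDIS3L2, with only 20 and 28 reads on d4. Its neighbour on chromosome 1, Igfbp2, took another course.

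Igfbp7, whose product binds IGFs weakly and is a matrix and vessel protein, was lower in shDIS3L2 on d0, scarce from d2 to d6 and higher in shDIS3L2 from d8. It was at 3.31, 0.569, 0.418, 0.977, 1.18, 2.18 and 2.38 CPM in shLacZ and at 1.21, 0.374, 0.0483, 1.51, 12.8, 30.6 and 22.6 CPM in shDIS3L2. The fold was 0.37 (0.24 to 0.54) on d0, on 132 and 32 reads, and the libraries of d2, d4 and d6 held 1 to 16 reads each. The fold was 1.54 (0.70 to 3.49) on d6, which is within counting error, and 10.8 (6.84 to 18.0) on d8, 14.04 (8.81 to 23.8) on d10 and 9.48 (6.22 to 15.1) on d12. The shLacZ libraries of those 3 days held 18 to 24 reads, which sets the width of the intervals. The higher level in shDIS3L2 was thus seen from d8, and that of Igf2 from d6. Its last exon overlaps the end of Polr2b, an RNA polymerase II subunit gene on the other strand, and reads of the shared bases may not be told apart, since no strand setting of the counting is given in the sources used here.

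Igfbp3, the main carrier of IGFs in adult blood, was higher on d4 than on d2 or d6 in both lines. It was at 4.59, 34.9, 170, 26.5, 27.2, 27 and 24.9 CPM in shLacZ and at 4.53, 32.6, 118, 18.9, 47.1, 73.8 and 125 CPM in shDIS3L2. From d4 to d6 its level was 0.156-fold (0.138 to 0.175) in shLacZ and 0.161-fold (0.138 to 0.186) in shDIS3L2. In shLacZ it then stayed between 24.9 and 27.2 CPM, while in shDIS3L2 each later library was higher than the one before. The fold was 0.69 (0.65 to 0.74) on d4 and 0.71 (0.60 to 0.85) on d6. From there it went to 1.73 (1.54 to 1.94) on d8, 2.73 (2.37 to 3.16) on d10 and 5.02 (4.39 to 5.77) on d12.

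Igfbp4, a binding protein known mainly as an inhibitor of IGF action, was at 6.84, 9.1, 30.9, 112, 96.3, 81.9 and 98.4 CPM in shLacZ and at 1.74, 5.61, 46.5, 222, 202, 238 and 283 CPM in shDIS3L2. Its fold was 1.98 (1.86 to 2.12) on d6, 2.10 (1.98 to 2.22) on d8, 2.91 (2.68 to 3.15) on d10 and 2.87 (2.67 to 3.09) on d12, just short of 3 on the last days. At d0 it was the lower in shDIS3L2, at 0.25-fold (0.18 to 0.35). The median log2 fold of all genes compared on d0 was -0.31, which DESeq2 size factors moved by 0.39 and trimmed mean of M values (TMM) scaling by 0.19, so folds on d0 are read against that median.

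Igfbp2, the most abundant member in ESCs, was lower late than early in both lines. It was at 639, 214, 119, 48.7, 65.2, 64.8 and 73.4 CPM in shLacZ and at 776, 204, 108, 76.2, 68.2, 42 and 46.8 CPM in shDIS3L2. The d12 library was 8.71-fold lower than d0 in shLacZ (13.2-fold with TMM, 12.4-fold with DESeq2 size factors) and 16.6-fold lower in shDIS3L2 (30.6-fold and 32.7-fold). Between the lines it was 1.56-fold (1.41 to 1.74) higher in shDIS3L2 on d6, within counting error on d8 (1.05, 0.96 to 1.13), and lower on d10 (0.65, 0.58 to 0.72) and d12 (0.64, 0.57 to 0.72).

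The makeup of the 5 binding-protein genes changed with time in both lines and differed between them late. Per length, Igfbp2 made up 98.3% of their summed reads in shLacZ and 99.3% in shDIS3L2 on d0. At d4, Igfbp3 had 43.0% and 35.3%. At d12 shLacZ had 39.4% Igfbp2, 28.7% Igfbp5, 22.1% Igfbp4, 7.88% Igfbp3 and 1.95% Igfbp7. At d12 shDIS3L2 had 10.5% Igfbp2, 38.8% Igfbp5, 26.5% Igfbp4, 16.5% Igfbp3 and 7.73% Igfbp7. The leading binding-protein gene was therefore Igfbp2 in shLacZ and Igfbp5 in shDIS3L2 on each of the days d6 to d12. The sum of the 5, in CPM per kilobase of gene length (RPKM), was 101 in shLacZ and 242 in shDIS3L2 on d12, against 352 and 423 on d0.

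**Figure D3:**
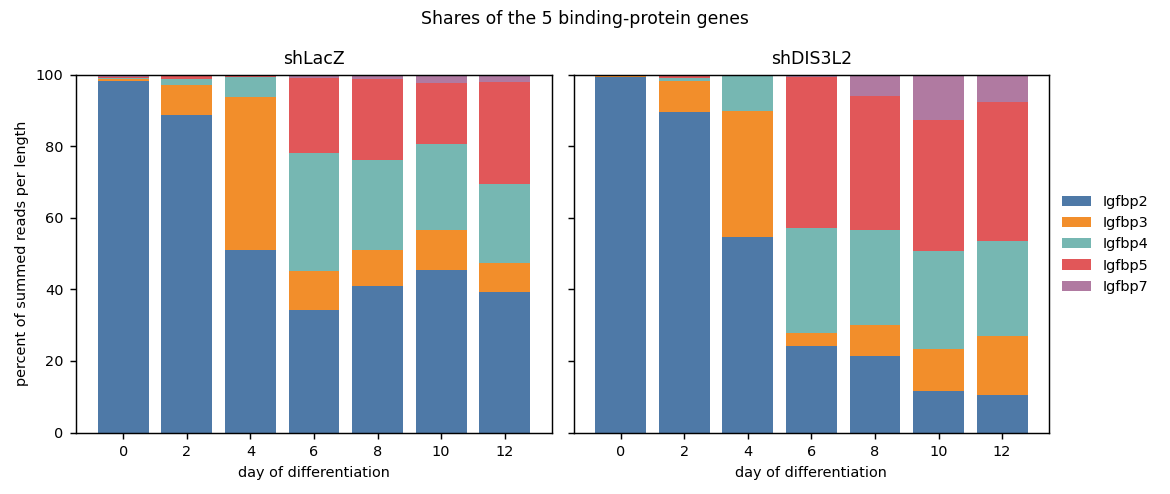
Percent of the summed reads per length of Igfbp2, Igfbp3, Igfbp4, Igfbp5 and Igfbp7 on each day, stacked to 100% (left shLacZ, right shDIS3L2). Igfbp2 holds 39.4% on d12 in shLacZ and 10.5% in shDIS3L2, where Igfbp5 holds 38.8%.

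Per length, the order of the members was led by Igfbp2 on d0 in both lines (346 RPKM in shLacZ, 420 in shDIS3L2), with Igf2r next at 5.02 and 4.41 RPKM. At d12 the order in shLacZ was H19 (1385 RPKM), Igf2 (140), Igfbp2 (39.7), Igf2r (31.8), Igfbp5 (29.0), Igfbp4 (22.3), Igfbp3 (7.95), Igf1r (4.69), Igfbp7 (1.97) and Igf1 (0.961). In shDIS3L2 it was H19 (1999), Igf2 (1189.5), Igf2r (120), Igfbp5 (93.6), Igfbp4 (64.0), Igfbp3 (39.9), Igfbp2 (25.3), Igfbp7 (18.7), Igf1r (5.77) and Igf1 (3.41). Both lines kept H19 and Igf2 at the head and Igf1 at the end, and Igfbp2 came before Igf2r in shLacZ and after Igfbp3 in shDIS3L2.

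Counted over the members, a gene was taken as changed when the fold was at least 3 and the CPM at least 1 in 1 of the 2 libraries, with fewer than 3 reads set to 3. No member was 3-fold higher in shDIS3L2 on d0 (1.03% of all genes), d2 (0.163%) or d4 (0.358%), with 8 of the 10 over the minimum level on each of these days. Lower by this measure were Igfbp4 on d0 (1 of 8, all genes 4.09%), none on d2 (0.207%) and H19 on d4 (1 of 8, all genes 1.78%). From d6 all 10 were compared. Higher were 3 on d6 (all genes 2.68%), 4 on d8 (5.15%), 4 on d10 (7.83%) and 6 on d12 (7.55%). On d6 and d12 alone, the late days with a detectably lower Dis3l2, these were 3 and 6. The d6 genes were Igf2, Igf2r and Igfbp5, Igfbp7 joined them on d8, and Igf1 and Igfbp3 on d12. None was 3-fold lower on d6 (3.99%), d8 (3.69%), d10 (3.23%) or d12 (1.48%). Among all genes 3-fold changed, the higher ones made up 20.1% on d0 (34.3% with TMM scaling, 50.4% with DESeq2 size factors) and 16.8% on d4 (29.2% with TMM). The members were chosen on these contrasts, so nothing is read from their excess over the background. The median log2 fold of the 10 was 0.88, 0.93, 1.49 and 1.76 on the 4 days, beside medians of all genes compared between -0.0035 and 0.043.

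**Figure D4:**
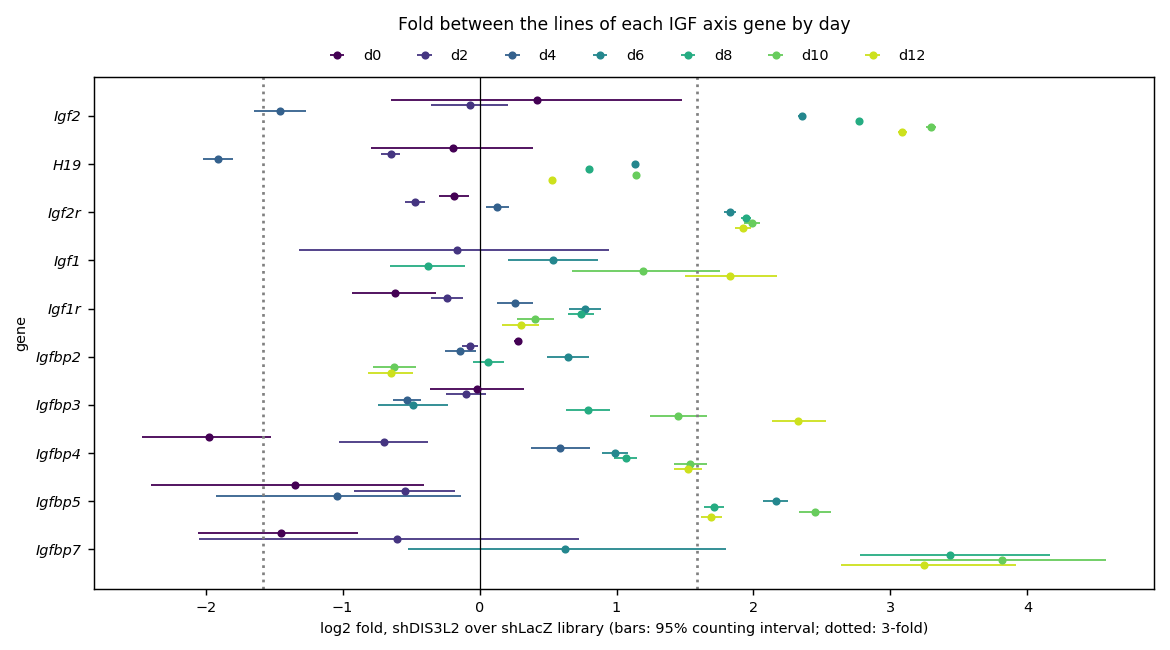
Log2 fold of shDIS3L2 over shLacZ for each member (rows) and day (colours from dark d0 to light d12), with 95% counting intervals and dotted lines at 3-fold. Igf2, Igf2r and Igfbp5 lie beyond the right dotted line on each of the 4 days from d6, and points are left out where both libraries held at most 3 reads.

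Along the time course alone, 8 of the 10 members were at least 3-fold higher on d12 than on d0 in shLacZ (all genes 31.6%) and 9 in shDIS3L2 (42.8%), Igfbp7 making the difference. Among all genes 3-fold changed from d0 to d12, the higher ones made up 67.6% in shLacZ and 75.4% in shDIS3L2, and 49.9% and 54.5% with TMM, which lowered these log2 folds by 0.59 and 0.88. Igfbp2 was the 1 member lower in each line (all genes 15.1% in shLacZ and 13.9% in shDIS3L2). From d4 to d6, 5 of 9 members compared were at least 3-fold higher in shLacZ (all genes 4.22%) and 7 of 10 in shDIS3L2 (7.75%). Those of both lines were Igf2, H19, Igf1, Igfbp4 and Igfbp5, and shDIS3L2 added Igf2r (6.49-fold, 6.28 to 6.70, against 2.00-fold, 1.88 to 2.11, in shLacZ) and Igfbp7. Igfbp3 was the 1 member lower across that step in each line (all genes 5.69% and 7.09%).

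The wider pathway was read from lists of other genes, also drawn up with results of these data known. Of 11 other ligands, receptors and adaptors, 9 were over the minimum level on d12, with Grb10 higher (1 of 9, all genes 7.55%) and Irs4 lower (1 of 9, all genes 1.48%). The median log2 fold of the 9 compared was 0.49 on d10 and -0.34 on d12. Grb10, an imprinted adaptor that restrains insulin and IGF1 receptor signalling, was at 75.4 CPM in shLacZ and 596 in shDIS3L2 on d10 (7.90-fold, 7.29 to 8.57) and 6.08-fold (5.64 to 6.56) higher on d12. Irs4, an insulin receptor substrate, was at 10.3 and 1.85 CPM on d10 (0.18-fold, 0.12 to 0.27) and at 0.23-fold (0.16 to 0.32) on d12. The insulin gene Ins1 had no read in any of the 14 libraries, and Ins2 had 3 reads in shDIS3L2 on d10 and none elsewhere. No read allows at most 0.0752 to 0.418 CPM, by depth.

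Of 12 other binding proteins and their modulators, 5 of 11 compared were at least 3-fold higher on d12 (all genes 7.55%) and 1 was lower (all genes 1.48%), with a median log2 fold of 1.39. On d10 the median was 0.40. Adam12, a protease that cleaves IGF-binding proteins, was at 20.8 and 183 CPM on d10 (8.80-fold, 7.55 to 10.3) and 6.90-fold (5.90 to 8.12) higher on d12. Pappa2, which cleaves IGFBP5, was 5.11-fold (2.74 to 10.4) and Stc1, whose product inhibits such proteases, 4.88-fold (2.60 to 9.95) higher on d12, both from 12 shLacZ reads. Htra3 (3.59-fold, 1.30 to 12.3) and Kazald1 (4.05-fold, 1.74 to 10.9) were also higher on d12, from 5 and 7 reads. Igfals, the liver-type partner of circulating IGF complexes, was lower (0.24, 0.057 to 0.73) on 16 and 4 reads. Stc2, of the same list, was also lower, by less than 3-fold. It was at 0.39-fold (0.31 to 0.49) on d10 and 0.51-fold (0.40 to 0.63) on d12, the latter on 237 and 127 reads.

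The 3 IGF2 mRNA-binding proteins, which bind Igf2 transcripts among others, were not 3-fold different on any day, with a median log2 fold of -0.36 on d10 and -0.32 on d12. Of the 18 genes of the PI3K-AKT core, the kinase cascade downstream of IGF1R, all were over the minimum level. None was 3-fold higher or lower on any day, with a median log2 fold of 0.040 on d12. By day, 0.163 to 7.83% of all genes were 3-fold higher and 0.207 to 4.09% lower. Nothing is therefore read from the lack of such genes in these 2 short lists.

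The genes near Igf2 on chromosome 7 were read next, and a regional difference was not tested. Within 500000 bases of Igf2, 17 genes besides Igf2 and H19 had a CPM of at least 1 on d10 or d12. Of these, 6 were at least 3-fold higher in shDIS3L2 on d12 (all genes 7.55%) and none lower (1.48%). The median log2 fold of the 17 on d12 was 1.01, beside 0.043 for all genes compared. At d10 there were also 6, with Ifitm10 and Igf2os in place of Ascl2 and Tspan32. Lsp1, a gene of an actin-binding protein of leukocytes whose start lies 206 kb downstream of that of Igf2, was 15.2-fold (12.6 to 18.4) higher, on 118 and 1896 reads. Tnni2 (3.66, 1.65 to 9.21), Ascl2 (3.62, 1.43 to 10.9) and Tspan32 (3.07, 0.95 to 12.9) rested on 4 to 31 reads per library, and Trpm5, with 2 reads in shLacZ, gave 31.6 (8.42 to 267). The sixth was Mir483, inside Igf2, with 1 and 32 reads. The well-counted genes Ctsd (1.07, 1.03 to 1.12), Cd81 (1.19, 1.12 to 1.26) and Mrpl23 (0.72, 0.57 to 0.91), which lies between H19 and Lsp1, were all under 1.5-fold from equal levels. Others lay between, with Gm33148 at 2.89-fold (1.62 to 5.45), Igf2os at 2.13-fold (1.85 to 2.47) and Tnnt3 at 2.01-fold (1.29 to 3.22), and Gm45889 was the lower in shDIS3L2 (0.35, 0.25 to 0.49, on 137 and 51 reads). These genes were named after their values were seen. Of the 6 higher on d12, Tnni2, Ascl2, Trpm5 and Mir483 reached 1 CPM on d10 or d12 only in shDIS3L2. They were thus kept through the line in which they were high. Nothing is therefore read from the counts or the median of the neighbours. Unlike the all-gene shares, the counts of neighbours did not raise low nonzero reads to 3 or ask for 1 CPM on the same day.

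Igf2os, which overlaps Igf2 on the opposite strand, was at 19.004 and 61.0 CPM on d10 (3.21-fold, 2.72 to 3.81). The strand setting of the counting is not given in the sources used here, so reads of Igf2 and Igf2os may not be told apart. Around Igf2r, 17 other genes were measured and none was 3-fold different on d12, with a median log2 fold of 0.072. At d10, Slc22a3 (3.72-fold, 0.897 to 32.9, on 2 and 19 reads) and Gm7162 (0.28-fold, 0.070 to 1.02, on 7 and 5 reads) passed 3-fold, both under 1 CPM and within counting error. Neither would be counted by the criterion used for the members. Airn, the noncoding RNA antisense to Igf2r from the paternal copy, was at 23.0 and 32.7 CPM on d10 (1.42-fold, 1.21 to 1.68) and 1.45-fold (1.23 to 1.71) higher on d12, and the same limit on strand applies to it.

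Likeness of course was measured as Pearson's r of log2(CPM + 1) over the 14 libraries. With Igf2 it was 0.97 for Igfbp4, 0.96 for Igfbp5, 0.96 for Igf2r, 0.95 for H19, 0.92 for Igf1, 0.78 for Igf1r, 0.61 for Igfbp7, 0.45 for Igfbp3 and -0.92 for Igfbp2. The 14 libraries share lines and days, so r only describes likeness, and a large step between d4 and d6 can by itself give a high value. Of the 12948 other genes with at least 10 CPM in 1 library, 6.36% reached 0.9 with Igf2, 6.76% with H19 and 2.97% with Igfbp5. The 5 most like Igf2 were Igf2os (0.99), Col4a5 (0.99), a basement membrane collagen, Smarca2 (0.99), a chromatin remodelling ATPase, Rin2 (0.99) and Nhsl2 (0.99). Those most like H19 were Zhx3, Tnfaip1, Sgms1, Thbs1 and Atxn1 (0.98 to 0.99), and those most like Igfbp5 were Ikbip (0.99), the Wnt receptor gene Fzd4 (0.98), Hcfc2 (0.98), the mesenchymal transcription factor gene Foxf2 (0.97) and Gab2 (0.97).

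Markers of other cell types moved with the same libraries. Over 12 mesenchyme-like markers such as Col1a1 and Dcn, the summed level was 405, 1892, 1947 and 1474 CPM in shLacZ on d6, d8, d10 and d12 and 1247, 10028, 16295 and 16838 CPM in shDIS3L2, with 8 of the 12 at least 3-fold higher on d12 (all genes 7.55%) and none lower (1.48%). Over 12 visceral endoderm-like markers such as Afp and Ttr, it was 3079, 6572, 7402 and 5082 CPM in shLacZ and 671, 1698, 2194 and 1743 CPM in shDIS3L2. At least 3-fold lower were 8 of the 12 on d6 (all genes 3.99%), 7 on d8 (3.69%), 6 on d10 (3.23%) and 3 on d12 (1.48%). None was 3-fold higher on these days. The pluripotency list of 9 genes was summed at 4817 (shLacZ) and 3761 CPM (shDIS3L2) on d0, at 511 and 81.6 CPM on d6 and at 638 and 468 CPM on d12. None of the 12 markers of either tissue list was at 0 in any library from d6 on. The part of such differences in cell types in the levels of the IGF axis was not tested.

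**Figure D5:**
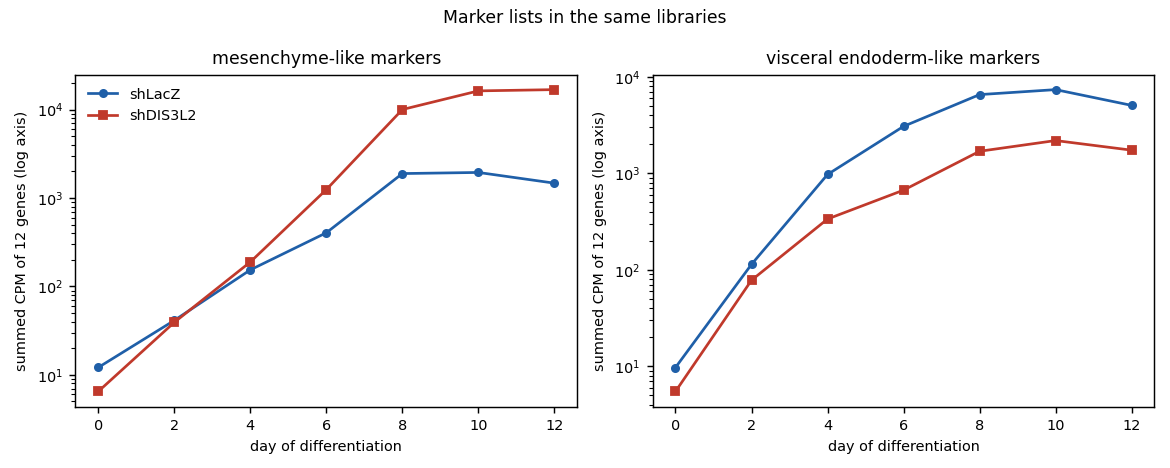
Summed CPM, on log axes, of 12 mesenchyme-like markers (left) and 12 visceral endoderm-like markers (right) against day, 1 point per library. From d6 the mesenchyme-like sum is higher in shDIS3L2 (16838 against 1474 CPM on d12) and the visceral endoderm-like sum lower (1743 against 5082 CPM).

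The fold of the mesenchyme-like sum between the lines was 1.23 on d4, 3.08 on d6, 5.30 on d8, 8.37 on d10 and 11.4 on d12. The sum is carried by its most abundant genes, and over the single markers compared the median log2 fold was -0.40 on d4, 2.26 on d6, 2.13 on d8, 3.17 on d10 and 2.89 on d12, beside -1.46, 2.35, 2.77, 3.29 and 3.09 for Igf2. At d4, Col1a1, Col3a1, Postn and Lum, 4 of the 10 markers compared, were at least 3-fold lower in shDIS3L2 (all genes 1.78%), and Igf2 was also the lower on that day. On d0 the median of the 4 markers compared was -1.05, while Igf2 was at 0.42, on 18 and 16 reads and within counting error. The visceral endoderm-like sum was also the lower in shDIS3L2 on d4, at 0.35-fold (975 and 337 CPM). A link between the markers and Igf2 was not tested. Of the endothelial-like, blood-like, cardiomyocyte-like and neural-like lists of 8, 6, 8 and 8 genes, 8, 4, 7 and 7 genes were compared on d12. Of those compared, 1, 4, 3 and 0 were at least 3-fold higher (all genes 7.55%) and 0, 0, 0 and 2 lower (all genes 1.48%). The blood-like sum was 5.85 and 34.7 CPM on d12, the cardiomyocyte-like 43.5 and 99.8, the endothelial-like 401 and 388 and the neural-like 114 and 93.5 CPM, all far under the mesenchyme-like sum of shDIS3L2.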

How the data were processed

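PolyA RNA of the 14 libraries was sequenced on an Illumina instrument. Alignment by the authors was with Subread to GRCm38 with the Ensembl annotation, and featureCounts gave the deposited counts, which are whole reads per gene and not normalized. The gene length column of that table, another deposited value in bases, was used for levels per length. The deposited CPM values of the authors cover 16181 protein-coding genes and equal the count plus 0.25 scaled to the total of the listed genes. They served only for names and for an alternative total. Knockdown columns are named shm5 and were taken as shDIS3L2, the one hairpin besides shLacZ. Symbols of other genes are those of GENCODE M21.

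CPM was recomputed over all genes. For members, lists and all genes, a difference was counted at a fold of at least 3 with a CPM of at least 1, and fewer than 3 reads were set to 3. Folds of single genes and the counts of neighbours did not raise low nonzero reads to 3. No test was made, since a group is 1 library. Intervals and floors cover counting error only, not the spread between cultures. Reads copied by PCR and not tagged per molecule are not independent, so the intervals may be too narrow even for counting error. The floor of 3 reads is 0.0752 to 0.418 CPM, by depth. Members and lists were chosen with earlier results of these data known. Named genes are the members, the 5 genes most like Igf2, H19 and Igfbp5, pathway genes 3-fold changed at d10 or d12, and genes within 500000 bases of Igf2 or Igf2r. Stc2, under 3-fold, is named besides. Summed levels stand for the marker lists.

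Alternatives were TMM factors (edgeR 4.0.16), DESeq2 1.42.0 size factors, protein-coding totals, no minimum CPM or 10, a fold of 2 and a pseudocount of 0.25 in place of 1. The fold criterion and interval were tested on simulated data. The simulated counts held counting error only, with changes planted in well-counted genes. They therefore say nothing on the spread between cultures or on genes with few reads. Python 3.11.15, numpy 2.4.6, scipy 1.17.1, pandas 2.3.3, matplotlib 3.10.9 and R 4.3.3 were used.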

Additional observations from a re-analysis of the deposited data

Results flagged for a closer look

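For 2 members every fold between the lines pointed one way on the 3 days d0, d2 and d4 and the other way on the 4 days from d6 to d12. The difference between the early and the late days was not tested. For Igfbp5 the median log2 fold was -1.04 early (from -1.35 to -0.54) and 1.94 late (from 1.69 to 2.45), a shift of 2.98. For H19 it was -0.65 early (from -1.91 to -0.20) and 0.97 late (from 0.53 to 1.15), a shift of 1.62. The H19 fold at d0 was within counting error and was 1.14 with DESeq2 size factors in place of 0.87. The Igfbp5 fold was 0.39 (0.19 to 0.75) on d0, on 46 and 12 reads, and 0.49 (0.26 to 0.91) on d4, on 20 and 28 reads. The median log2 fold of all genes compared on d0 was -0.31.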

How the results depend on the processing

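Under TMM factors, DESeq2 size factors and protein-coding totals the members counted as 3-fold higher or lower stayed within 1.5 times the reported number on every day and along time in both lines. Of 201 folds of single members under these scalings, 179 stayed within the counting interval, 22 moved out of it and 0 reversed a 3-fold difference. The Igf2 fold at d12 was 7.94 with TMM. At d0, folds of H19, Igf2r and Igfbp3 near 1 crossed it under 1 or more scalings. A minimum of 10 CPM left 0 members lower at d0 in place of 1. A fold of 2 gave 3 lower at d0 and 3 at d4, and 8 higher at d10 in place of 4. Over all genes, the number 3-fold changed at d0, d2 and d4 was 742, 59 and 334, with no minimum CPM 1429, 239 and 639. With a minimum of 10 CPM it was 142, 4, 49, 363, 572, 763 and 540 from d0 to d12. At a fold of 2 it was 2211, 338, 1104, 2305, 3104, 3708 and 2847. The correlations of Igf2 with the members moved by under 0.1 with another pseudocount or TMM. Depth limits Igf1 up to d4 and Igfbp7 from d2 to d6. Chosen after seeing the data, the same scalings were run on folds of single members between days of a line, of which 78 of 204 moved out of the counting interval and 0 reversed a 3-fold difference. Leaving out a replicate was not possible with 1 library per group. The higher share of 3-fold changed genes from d0 to d12 was 52.0% in shLacZ and 52.2% in shDIS3L2 with DESeq2 size factors and 61.3% in shLacZ with protein-coding totals.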
